A study of Homo sapiens with 8 samples.

Results

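Nuclear-encoded subunits of oxidative phosphorylation (OXPHOS) were examined in MM.1S cells, an established human multiple myeloma (MM) cell line. They were chosen by gene symbol: the NDUFA, NDUFB, NDUFC, NDUFS and NDUFV subunits, SDHA to SDHD, the UQCR genes with CYC1, COX4 to COX8 and the ATP5 genes, without symbols that end as pseudogenes. The rule found 87 members among 60671 genes, of which 36 belong to complex I, 4 to complex II, 10 to complex III, 18 to complex IV and 19 to complex V. Members were assigned to complexes by symbol, and NDUFA4 was counted with complex IV, of which it is a subunit. ATP5IF1, the inhibitory factor of complex V, was counted with complex V. NDUFAB1 does not match the rule and stands in the list of electron carriers below. RNA was sequenced from 8 samples collected at 12 h, with 2 samples each of bortezomib plus FeAc, bortezomib, FeAc and vehicle. FeAc is the iron compound with which the study supplied iron, and bortezomib is a proteasome inhibitor used against MM. All groups are the same unmodified cell line, the doses are not given in the labels, and the study's methods name biological replicates. The comparisons ask whether FeAc, alone or on top of bortezomib, and bortezomib, alone or on top of FeAc, went with other transcript levels of the respiratory chain.

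OXPHOS is the process by which mitochondria turn the electrons of nutrients into ATP. Complexes I and II feed electrons into coenzyme Q, complexes III and IV pass them on to oxygen while protons are pumped, and complex V, the ATP synthase, uses the returning protons to make ATP. Most subunits are encoded in the nucleus and imported, while a core of complexes I, III, IV and V is encoded in mitochondrial DNA, so these complexes, unlike complex II, are assembled from products of both genomes. Plasma cells, from which MM arises, secrete large amounts of protein and need ATP for it.

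Levels are given in TPM, a measure of transcript abundance that corrects for the length of a gene and sets every sample to the same sum. All 9 markers of myeloma plasma cells, such as SDC1 and TNFRSF17, had at least 1 TPM in every sample, and 17 of 21 markers of B cells, T cells, myeloid, red and stromal cells were under 1 TPM in every sample. Of the rest, the red cell marker HBB had at least 1 TPM in every sample, and CD3E, CD14 and COL1A1 did in some. Read depth is unknown because TPM hold no counts. Libraries of 1 group differed in their makeup. The 13 mitochondrially encoded mRNAs took 2.73% and 9.67% of TPM with bortezomib plus FeAc, 5.17% and 7.77% with bortezomib, 13.8% and 11.01% with FeAc, and 7.66% and 13.4% with vehicle. Vehicle replicate 1 held 69 of 79 tested members at a higher level than vehicle replicate 2, and FeAc replicate 1 held 71 of 79 at a lower level than FeAc replicate 2. Of the tested members, 66 have a coding length of at most 846 bases. Over all genes, transcripts of at most that length were higher in vehicle replicate 1 than in vehicle replicate 2, with a median log2 difference of 0.11, against -0.25 for those of at least 2211 bases. The part of these differences in the results below was not tested. It is touched only by values given under other settings. These leave out single libraries, remove a trend over coding length, or rescale without mitochondrially encoded genes.

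The subunits were among the abundant transcripts of these cells. Of the 87 members, 79 reached a mean of 1 TPM in at least 1 group and were tested, with a median level of 265 TPM, against 10.7 TPM over all 14812 tested genes. Summed over the members, the level was 23337 and 21626 TPM with bortezomib plus FeAc, 22953 and 22455 TPM with bortezomib, 20670 and 25369 TPM with FeAc, and 27785 and 21944 TPM with vehicle. The vehicle samples lay farther apart than the means of any 2 groups. The order of the members by level was nearly the same in every sample, with a Spearman rho across 79 genes of 0.931 to 0.994 over the 28 pairs of samples, a description in which genes share their libraries.

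In complex I the highest mean level was that of NDUFV2 at 664 TPM, and the lowest was 36.1 TPM for NDUFV3, an accessory subunit. The subunits of complex II, which also works in the citric acid cycle, lay closer together, at 98.5 TPM for SDHD to 129 TPM for SDHC. In complex III UQCRH, the hinge protein that binds cytochrome c1, averaged 867 TPM, against 38.8 TPM for the Rieske iron-sulfur protein UQCRFS1. COX7C led complex IV with 691 TPM, and COX7A2L, known for its part in supercomplexes of the respiratory chain, was lowest with 73.4 TPM. ATP5MF, a small membrane subunit of complex V, was highest of all members with 952 TPM, and ATP5F1E of the F1 part was lowest in complex V with 57.8 TPM. These are mRNA levels scaled by length, and the means of the members differed by up to 26.4 times.

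The tissue isoforms and retrogene copies were at or near 0, and none was tested. COX4I2, COX6A2, COX7A1, COX7B2, COX8C and ATP5MGL were listed at 0 in all 8 samples. COX6B2, the testis form, had between 0.11 and 0.80 TPM, and UQCRHL, an intronless copy of UQCRH, had at most 0.15 TPM. Their counterparts were abundant, with means of 417 TPM for COX4I1, 562 TPM for COX6A1, 560.2 TPM for COX6B1, 354 TPM for COX7A2, 128.5 TPM for COX7B and 615 TPM for COX8A. Reads of near-identical copies can be split between genes, and the pseudogenes of these families summed to between 7.61 and 28.1 TPM in a sample.

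FeAc alone went with no call among the members. A gene was called at an adjusted p under 0.05 (limma, Benjamini-Hochberg over all tested genes) and a fold change over 1.5. No member of 79 was called for FeAc against vehicle, where 0.00675% of all tested genes were called, and none had an unadjusted p under 0.05, against 506 of all genes. The study itself reported many more genes changed by FeAc at these thresholds, so this share of calls holds for the present fit alone. The members' median log2 fold change was -0.12, against 0.08 over all tested genes. Without vehicle replicate 1 it was 0.05 and without FeAc replicate 1 it was 0.03, while without vehicle replicate 2 it was -0.29, without FeAc replicate 2 it was -0.25, and scaled by the median of ratios it was -0.21. In complex I the values ran from -0.38 for NDUFA5 to 0.30 for NDUFV1, which binds NADH and the flavin. In complex II they ran from -0.25 for the membrane anchor SDHD to 0.30 for the flavoprotein SDHA. In complex III they ran from -0.33 for UQCRB to 0.02 for CYC1. In complex IV they ran from -0.23 for COX7C to 0.05 for COX5A, and in complex V from -0.40 for ATP5F1C to 0.18 for ATP5F1D, the central stalk subunits. None of these members passed, and the smallest adjusted p of a member was 0.951. The groups did not overlap for 3 members higher with FeAc, where 22.9% of all genes lay so, and for 7 members lower, where 10.1% did.

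Adding FeAc to bortezomib gave the same picture. No member was called for bortezomib plus FeAc against bortezomib, where 0% of all genes were called, and no member but 373 of all genes had an unadjusted p under 0.05 (limma). The members' median was -0.02, against -0.04 over all genes. The extremes in complex I were -0.32 for NDUFV3 and 0.15 for NDUFB9, in complex II -0.22 for SDHC and -0.01 for SDHB, in complex III -0.12 for CYC1 and 0.12 for UQCR11, in complex IV -0.09 for COX7A2 and 0.15 for COX7B, and in complex V -0.28 for ATP5F1D and 0.25 for ATP5ME. The groups did not overlap for 4 members higher, beside 8.82% of all genes, and for 7 members lower, beside 13% of all genes. The difference between the FeAc differences with and without bortezomib was tested as an interaction. No member was called there, at a smallest adjusted p of 0.983, and 0.00675% of all genes were. With both FeAc comparisons averaged, which was chosen after seeing the data, no member was called, beside 0.027% of all genes. The FeAc samples and the others overlapped for all 79 members, where 0.587% of all genes lay apart as higher and 0.358% as lower.

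The subunits that hold an iron-sulfur cluster bear on an iron treatment, and they were taken as a group after their values were seen. NDUFS1, NDUFS7, NDUFS8, NDUFV1 and NDUFV2 of complex I, SDHB and UQCRFS1 had a median log2 fold change of -0.07 for FeAc against vehicle, with a range of -0.23 to 0.30. For bortezomib plus FeAc against bortezomib the median was -0.02, with a range of -0.17 to 0.00247. None of these 7 subunits passed in either comparison.

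Bortezomib went with small differences in the members, and 1 member was called. The samples with and without bortezomib were deposited in separate tables, so the table and the drug cannot be told apart. For bortezomib against vehicle 1 of 79 members was called, where 12.2% of all tested genes were, and for bortezomib plus FeAc against FeAc 1 of 79 was called, where 13.8% were. It was NDUFV2 in both, an iron-sulfur subunit of the module of complex I that oxidises NADH. The members' median log2 fold change was -0.16 for bortezomib against vehicle, beside -0.06 over all genes, and -0.04 for bortezomib plus FeAc against FeAc, beside -0.17 over all genes. Both depend on scaling. By the median of ratios, the members' median for bortezomib against vehicle was -0.08, with the median of all genes shifted by 0.06. For bortezomib plus FeAc against FeAc it was 0.16, with a shift of 0.17, and the calls over all genes, 35.8% of them higher, were then 57.2% higher. Without vehicle replicate 1 the median for bortezomib against vehicle was 0.03, and without vehicle replicate 2 it was -0.34. For both bortezomib comparisons averaged, the shift was 0.12 and the members' median was 0.08 in place of -0.06.

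NDUFV2 (ENSG00000178127, GRCh38 chromosome 18, 9102630 to 9134345) had 448 and 529.7 TPM with bortezomib plus FeAc, 539.5 and 557.5 TPM with bortezomib, 744 and 790.7 TPM with FeAc, and 899 and 804 TPM with vehicle. No 2 of the groups overlapped, and the 4 samples with bortezomib were the lowest. The log2 fold change was -0.63 for bortezomib against vehicle (SE 0.16, limma adjusted p = 0.0427) and -0.65 for bortezomib plus FeAc against FeAc (SE 0.16, limma adjusted p = 0.0373). These pairs share no sample, but both p-values come from the same fit of all 4 groups and share its estimate of spread. Fitted on only the groups compared, NDUFV2 passed for bortezomib against vehicle but not for bortezomib plus FeAc against FeAc. Averaged over both pairs, the log2 fold change of NDUFV2 was -0.64 (SE 0.11, limma adjusted p = 0.00561), a fold of 1.56. The averaged value lay between -0.73 and -0.48 over 17 alternatives and passed in all 17, with adjusted p of 0.00411 to 0.0387. In the single comparisons it passed in 7 and 5 of 18 alternatives. The call for bortezomib against vehicle was lost without either vehicle, FeAc or bortezomib replicate, with 0 members called in place of 1, except that COX7B was called without vehicle replicate 2. The call for bortezomib plus FeAc against FeAc was lost without any 1 library but bortezomib plus FeAc replicate 2, without which 6 members were called. The ratio of NDUFV2 to NDUFV1, its partner in the same module, does not depend on scaling within a library. It was 2.20 and 1.85 with bortezomib plus FeAc, 2.22 and 2.24 with bortezomib, 2.60 and 2.99 with FeAc, and 4.42 and 3.29 with vehicle, so the samples with bortezomib lay below the others. These genes differ in coding length, at 756 bases for NDUFV2 and 1392 for NDUFV1. The part of the length trend in this ratio was not tested.

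Averaging both bortezomib comparisons was chosen after seeing the data, and it raised the number of members past an adjusted p of 0.05 to 6 of 79. The 5 lower ones compare with 20% of all genes and the 1 higher one with 11.4%. Which direction prevailed among the members that passed depended on scaling, as given below. At a fold over 1.5, 1 member was called, beside 22.5% of all genes. The median size of the members' log2 difference was 0.15 without regard to sign, against 0.35 over all genes. Of the members, 78 of 79 lay within 0.5 on the log2 scale, as did 64.5% of all genes. All genes were not matched to the members by level, which had a median of 265 TPM in the members and 10.7 TPM over all genes. The part of level in this contrast was not tested. The 4 samples with bortezomib lay apart from the other 4 as higher for 2 members, beside 13.1% of all genes, and as lower for 13 members, beside 23.3% of all genes.

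NDUFA3 (chromosome 19, 54102728 to 54109257), an accessory subunit of complex I, had 85.0 and 96.1 TPM with bortezomib plus FeAc, 87.01 and 86.63 TPM with bortezomib, 113 and 116.5 TPM with FeAc, and 117 and 120.3 TPM with vehicle. Every sample with bortezomib lay below every sample without it. The averaged log2 fold change was -0.39 (SE 0.09, limma adjusted p = 0.0159), and it passed in 13 of 17 alternatives.

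COX5A (chromosome 15, 74919791 to 74938168), a subunit of complex IV that faces the matrix, had 264 and 366 TPM with bortezomib plus FeAc, 329.6 and 321 TPM with bortezomib, 432 and 437 TPM with FeAc, and 407 and 431.5 TPM with vehicle. The samples with bortezomib were lower without overlap. The averaged log2 fold change was -0.42 (SE 0.13, limma adjusted p = 0.0384), and it passed in 6 of 17 alternatives.

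ATP5F1A (chromosome 18, 46080248 to 46104334), the alpha subunit of the F1 part of complex V, where ATP is made, had 286 and 354.5 TPM with bortezomib plus FeAc, 326.5 and 349.8 TPM with bortezomib, 405.5 and 485 TPM with FeAc, and 449 and 417 TPM with vehicle. ATP5MC1 (chromosome 17, 48892765 to 48895871) encodes subunit c of the rotor ring, and had 177 and 209.8 TPM with bortezomib plus FeAc, 209 and 216 TPM with bortezomib, 254 and 295 TPM with FeAc, and 281 and 251 TPM with vehicle. Both were lower in every sample with bortezomib than in any without. Their averaged log2 fold changes were -0.42 (SE 0.12, limma adjusted p = 0.0347) and -0.41 (SE 0.11, limma adjusted p = 0.0266), and they passed in 6 and 10 of 17 alternatives.

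NDUFB4 (chromosome 3, 120596309 to 120602500), an accessory subunit in the membrane arm of complex I, went the other way. It had 383 and 343 TPM with bortezomib plus FeAc, 339 and 328 TPM with bortezomib, 253 and 273 TPM with FeAc, and 291 and 279 TPM with vehicle. The samples with bortezomib were higher without overlap. The averaged log2 fold change was 0.35 (SE 0.10, limma adjusted p = 0.0324), and it passed in 8 of 17 alternatives. NDUFB9, of the same arm, was the other member that lay apart as higher, with an averaged log2 fold change of 0.38 that did not pass (adjusted p = 0.0523, limma).

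The number of members past the adjusted p depended on single libraries. Without vehicle replicate 1, 4 members passed, of which NDUFV2 (-0.60, limma adjusted p = 0.0253) and NDUFA3 (-0.40, limma adjusted p = 0.0332) are among the 6. Without bortezomib plus FeAc replicate 1, the library with the lowest share of mitochondrially encoded mRNA, 4 passed, all among the 6: NDUFV2, NDUFA3, COX5A and NDUFB4. Leaving out FeAc replicate 1 left 3 and FeAc replicate 2 left 2, leaving out either bortezomib replicate left NDUFV2 alone, and leaving out bortezomib plus FeAc replicate 2 gave 12. Scaled by the median of ratios, 4 passed. NDUFV2 (-0.50, limma adjusted p = 0.0186) and NDUFB4 (0.49, limma adjusted p = 0.0219) were shared with the 6. The others were NDUFA10 and NDUFB9, both higher in the fit above. With the length trend removed 9 passed. NDUFV2, NDUFA3 and ATP5MC1 were lower in the fit above, and NDUFA10, NDUFA4, NDUFB4, NDUFB8, NDUFB9 and NDUFS3 were higher. Scaled to the members' median 5 passed, NDUFV2 (lower) and NDUFA4, NDUFB4, NDUFB8 and NDUFB9 (higher). Under these settings, unlike among the 6, most that passed were thus higher in the fit above. All 6 kept their direction in all 17 alternatives.

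The stretches before NDUFV2, NDUFA3 and NDUFB4 are shown because these complex I genes had the smallest adjusted p among the falls (NDUFV2, NDUFA3) and the 1 rise (NDUFB4). They come from RefSeq (GRCh38.p14), on the plus strand, 5′ to 3′, from 250 bases before the RefSeq start to the last base before the gene in GENCODE 29. Capitals mark matches to the GC box (GGGCGG) in NDUFV2 and to the core bound by the factor NRF1 (GCGCANGCG) in NDUFA3 and NDUFB4, on either strand. The stretches are chr18:9102449-9102629 for NDUFV2, chr19:54102605-54102727 for NDUFA3 and chr3:120596086-120596308 for NDUFB4.
NDUFV2: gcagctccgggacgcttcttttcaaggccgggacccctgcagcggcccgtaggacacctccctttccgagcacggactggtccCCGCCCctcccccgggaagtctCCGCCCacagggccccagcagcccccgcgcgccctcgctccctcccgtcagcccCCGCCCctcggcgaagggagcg
NDUFA3: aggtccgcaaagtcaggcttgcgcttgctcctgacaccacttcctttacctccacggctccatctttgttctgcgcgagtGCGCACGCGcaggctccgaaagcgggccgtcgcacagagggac
NDUFB4: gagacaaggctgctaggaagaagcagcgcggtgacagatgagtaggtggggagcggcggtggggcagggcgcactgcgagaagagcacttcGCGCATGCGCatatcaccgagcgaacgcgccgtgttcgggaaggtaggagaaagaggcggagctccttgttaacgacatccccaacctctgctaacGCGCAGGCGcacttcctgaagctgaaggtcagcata
The NDUFV2 stretch holds 3 GC boxes and no NRF1 core. NDUFA3, which was lower with bortezomib, and NDUFB4, which was higher, both hold NRF1 cores, of which the palindromic one in NDUFB4 matches on both strands and overlaps itself.

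Promoters of 66 of the 79 tested members were matched in RefSeq, each with 250 bases before and 50 after the start. The NRF1 core stood in 31.8% of them, against 7.52% of all 35116 promoters and 13.1% of the promoters of tested genes. The ETS motif bound by GABPA (CCGGAAG) stood in 30.3%, against 10.3% of all promoters, and the YY1 motif (AAGATGGCG) in 12.1%, against 1.75%. Among promoters of tested genes the ETS motif stood in 17.6% and the YY1 motif in 3.57%. The GC box stood in 63.6%, against 44.95% of all promoters and 65.5% of those of tested genes, the core of the heat shock element (GAANNTTC) in 6.06%, against 6.77% of all and 4.91% of those of tested genes, and the core of the antioxidant response element (TGANNNAGC) in 9.09%, against 13.5% of all and 12.04% of those of tested genes. Both strands were searched, NRF1 cores can overlap each other, and a match describes letters, not binding.

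Both bortezomib comparisons, which share no sample, can be set side by side. Of 79 members, 53 had the same sign in both (67.1%), against 76.8% of all genes, with 35 below 0 and 18 above 0 in both. Across the members Pearson's r was 0.641, against 0.699 across all genes, a description in which genes share their libraries. The groups did not overlap for 6 members higher and 26 lower with bortezomib than with vehicle, where 26.1% and 35% of all genes lay so. They did not overlap for 5 higher and 18 lower with bortezomib plus FeAc than with FeAc, where 19.4% and 39.4% of all genes lay so.

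In complex I the values ran from -0.63 for NDUFV2 to 0.35 for NDUFA10 with bortezomib against vehicle, and from -0.65 for NDUFV2 to 0.48 for NDUFB9 with bortezomib plus FeAc against FeAc. NDUFV2 belongs to the nuclear core subunits, which form the conserved arm that passes electrons to coenzyme Q. Averaged log2 fold changes of core subunits that did not pass were -0.02 for NDUFV1, -0.08 for NDUFS1, 0.18 for NDUFS3, -0.08 for NDUFS7 and -0.06 for NDUFS8. The median over complex I was -0.03.

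In complex II the values ran from -0.32 for the iron-sulfur subunit SDHB to 0.11 for SDHC with bortezomib against vehicle, and from -0.40 for SDHA to -0.07 for SDHC with bortezomib plus FeAc against FeAc. None of the 4 passed. In complex III the lowest were UQCRFS1 at -0.28 and CYC1, cytochrome c1, at -0.42, and the highest was UQCRQ with 0.10 and 0.29. In complex IV COX7B was lowest with bortezomib against vehicle, at -0.41, and COX5A with bortezomib plus FeAc against FeAc, at -0.48, while NDUFA4 was highest in both at 0.45 and 0.46. NDUFA4, once assigned to complex I, had 161 and 122.5 TPM with bortezomib plus FeAc, 151 and 146 TPM with bortezomib, 89.8 and 115.5 TPM with FeAc, and 142 and 82.8 TPM with vehicle. Its averaged log2 fold change of 0.45 did not pass (adjusted p = 0.107, limma), and vehicle replicate 1 overlapped the samples with bortezomib.

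Complex V had the lowest median of the complexes with bortezomib, at -0.30 against vehicle, -0.14 for bortezomib plus FeAc against FeAc and -0.27 averaged, beside medians of -0.06, -0.17 and -0.11 over all genes. Scaled by the median of ratios these medians of complex V were -0.22, 0.06 and -0.12, so the second turned its sign. The extremes were ATP5PB of the peripheral stalk at -0.43 and ATP5MG at 0.02 in the first comparison, and ATP5F1D at -0.66 and ATP5F1C at 0.18 in the second. In the F1 part the averaged values were -0.42 for ATP5F1A, -0.31 for ATP5F1B, -0.43 for ATP5F1D, -0.23 for ATP5F1E and 0.01 for ATP5F1C, of which ATP5F1A passed. The 3 ATP5MC genes, which encode the same mature ring protein with different import sequences, had a median of -0.31, and the 4 genes of the peripheral stalk one of -0.29. The 5 small membrane subunits lay nearer to no difference, with a median of -0.05 and a range of -0.26 to 0.08, and ATP5IF1 had 0.04. Of the 18 tested members of complex V, 7 were lower in all 4 samples with bortezomib than in all 4 without, beside 23.3% of all genes, and none was higher, beside 13.1% of all genes.

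Shares of the members' own sum do not depend on how a library was scaled. Complex V took 27.2% and 28.0% of it with bortezomib plus FeAc, 27.3% and 28.1% with bortezomib, 30.4% and 30.2% with FeAc, and 29.1% and 30.5% with vehicle. Complex I took 41.3% and 40.6% with bortezomib plus FeAc, 40.8% and 40.6% with bortezomib, 39.5% and 38.8% with FeAc, and 39.1% and 39.15% with vehicle. Complex IV took 20.6% and 19.98% with bortezomib plus FeAc, 20.5% and 20.2% with bortezomib, 18.8% and 19.75% with FeAc, and 19.85% and 19.03% with vehicle. With bortezomib the share of complex V was lower, and those of complexes I and IV were higher, in every sample than in any sample without it. Complex II took 1.78% to 2.19% and complex III 9.06% to 10.04% over the samples, with overlap between groups. The shares sum to a whole, so they are not independent, and they were not tested. Median coding lengths of the tested members were 502.5 bases in complex I, 292.5 in IV and 417 in V. The part of the length trend in the shares was not tested.

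**Figure D1:**
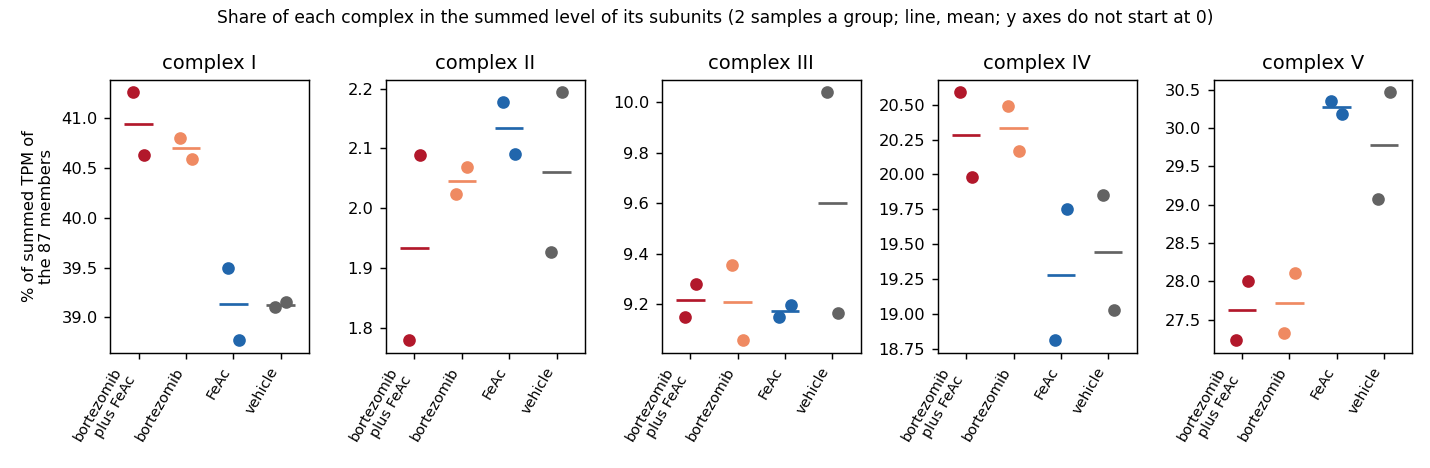
Share (%) of each complex in the summed TPM of the 87 members, 2 samples a group with the mean as a line (the vertical axes do not start at 0). Complex V lies at 27.2% to 28.1% in the samples with bortezomib and at 29.1% to 30.5% in those without.

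In TPM the sums of the complexes differed little. The log2 ratio of group means of complex I was -0.07 for bortezomib against vehicle, within the pooled SD of 0.16 between replicates. For complex V it was -0.23 for bortezomib against vehicle and -0.17 for bortezomib plus FeAc against FeAc, beside a replicate SD of 0.14, and the second of these turned to 0.04 when scaled by the median of ratios. For FeAc against vehicle the ratios lay between -0.18 in complex III and -0.05 in complex II, and the replicate SD was 0.20 and 0.11 in these complexes.

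Other genes of the pathway were described from lists with the same fit, averaged over both bortezomib comparisons and are read beside the 11.4% of all genes that passed as higher and the 20% that passed as lower. No gene of these lists passed in either FeAc comparison. Of 18 assembly factors of complex I, 2 rose and 2 fell, among them NDUFAF3 with -0.61 (adjusted p = 0.00648, limma). Of 4 assembly factors of complex II, 3 fell, led by SDHAF3, which helps insert iron-sulfur clusters, with -0.84 (adjusted p = 0.00431, limma). Of 6 for complex III 2 fell, of 28 for complex IV 2 rose and 8 fell, and of 5 for complex V 2 rose. TMEM70 and TMEM242 stand in the lists of both complex I and complex V. TMEM70, with 0.35 (adjusted p = 0.0336, limma), is thus counted among the rises of both. ATPAF2, which helps assemble the F1 part, was higher with 0.73 (adjusted p = 0.00456, limma).

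Enzymes and carriers around the chain were described in the same way. Of 17 tested genes of electron carriers and coenzyme Q synthesis, 1 rose and 4 fell. COQ2, which joins the side chain to the coenzyme Q ring, had 6.89 and 9.73 TPM with bortezomib plus FeAc, 8.22 and 8.77 TPM with bortezomib, 29.6 and 27.8 TPM with FeAc, and 36.3 and 29.8 TPM with vehicle. The samples with bortezomib were lower without overlap, with an averaged log2 fold change of -1.76 (SE 0.14, limma adjusted p = 0.000303). CYCS, cytochrome c, fell by 0.44 on the log2 scale (adjusted p = 0.0192, limma). Of 18 citric acid cycle genes, 1 rose and 5 fell, with -1.49 for IDH2 (adjusted p = 0.00383, limma), the mitochondrial NADP-linked isocitrate dehydrogenase.

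Of 78 mitochondrial ribosomal proteins, 7 rose and 11 fell. MRPL18 of the large subunit had 350.1 and 194.5 TPM with bortezomib plus FeAc, 303 and 256 TPM with bortezomib, 75.9 and 76.8 TPM with FeAc, and 80.5 and 77.4 TPM with vehicle. Its averaged log2 fold change was 1.78 (SE 0.18, limma adjusted p = 0.000803). Of 24 tested import genes 4 rose and none fell, led by TOMM70, a receptor of the outer membrane, with 0.53 (adjusted p = 0.00597, limma). Of 13 regulators of OXPHOS genes, 1 rose and 2 fell. GABPB1, a partner of GABPA, had 48.5 and 45.1 TPM with bortezomib plus FeAc, 50.6 and 44.2 TPM with bortezomib, 27.0 and 30.5 TPM with FeAc, and 32.5 and 30.35 TPM with vehicle, and its averaged log2 fold change was 0.63 (adjusted p = 0.00424, limma). GABPA itself was lower, with -0.38 (adjusted p = 0.0347, limma), and so was the nuclear receptor ESRRA with -0.66 (adjusted p = 0.0169, limma).

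Of the 13 mitochondrially encoded mRNAs, 2 fell, MT-ND3 with -1.02 (adjusted p = 0.0328, limma) and MT-CO3 with -1.20 (adjusted p = 0.0478, limma), and the median over all 13 was -0.90. Relative to the members' sum, their sum was 1.162 and 4.45 times as high with bortezomib plus FeAc, 2.24 and 3.445 with bortezomib, 6.675 and 4.33 with FeAc, and 2.75 and 6.10 with vehicle. The groups with and without bortezomib overlapped in this ratio.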

How the data were processed

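RNA of 8 MM.1S samples was sequenced by the authors on an Illumina instrument after TruSeq library preparation. The authors deposited 2 tables of TPM values (transcript abundance relative to gene length and library sum) for 60671 genes, one holding vehicle and FeAc and the other bortezomib and bortezomib plus FeAc. According to the processing notes of the submitters, HISAT2, RSEM, StringTie, edgeR and DESeq2 were used, with no role given, on the build GRCh38.p13. Columns with the authors' own group means and comparisons (fold changes, p-values) were not used.

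The unit was taken from the values, which sum to 994968 to 996780 per sample. TPM hold no counts, so the depth is unknown and no counting interval can be given. TPM were tested as log2(TPM + 1), which understates fold changes of low genes, for genes whose mean reached 1 TPM in any group. All 4 groups were fitted together in limma 3.58.1 (R 4.3.3) with a mean-variance trend, and p-values were adjusted by Benjamini-Hochberg over 14812 genes. Calls required an adjusted p under 0.05 and a fold over 1.5. With 2 samples a group, p-values rest on the spread between these samples. That spread was pooled over all 4 groups and moderated toward the trend over all genes. The fit was tested on simulated data for bortezomib against vehicle, with genes of all levels changed and 14612 genes left unchanged. Of genes changed by 1.5 times, the threshold fold itself, 0 of 65 were called, and 0 passed the adjusted p. Of those changed by 2 times 18 of 67 were called, and of those changed by 4 times 49 of 68. A member without a call may therefore still have changed. In the data far more genes were called, 1800, and the adjusted p depends on that number. The simulated shares therefore need not hold there. Members and lists were chosen with earlier results of these data known, and averaging comparisons that share no sample was added after seeing the data.

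Named were members that were called, the highest and the most changed of each complex, tissue isoforms, core, complex II and F1 subunits (1 named item is not reported here), and up to 4 genes a list by smallest adjusted p. Other members that are named, such as the iron-sulfur group, NDUFB9 and those whose samples did not overlap, were chosen after their values were seen. Coordinates are from GENCODE 29 (GRCh38), which holds 96.3% of the gene IDs. RefSeq promoters (GRCh38.p14) matched 70 of 87 members. Alternatives were another pseudocount, other filters, fits of fewer groups, a replicate block, other scalings, other thresholds and leaving out each sample.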

Additional observations from a re-analysis of the deposited data

Results flagged for a closer look

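NDUFB4, the accessory subunit of complex I that was higher with bortezomib, had FeAc differences of opposite sign without and with bortezomib. With FeAc it had 253 and 273 TPM, against 291 and 279 TPM with vehicle, and with bortezomib plus FeAc 383 and 343 TPM, against 339 and 328 TPM with bortezomib. Both FeAc samples lay below both vehicle samples, and both samples with bortezomib plus FeAc lay above both with bortezomib. The difference between the 2 log2 differences was 0.24 and did not pass as an interaction (limma adjusted p = 0.983). It was the 1 member of 79 whose FeAc groups lay apart in opposite directions, beside 2.93% of all tested genes.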

How the results depend on the processing

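No member was called in either FeAc comparison or in the interaction under any alternative. The 1 member called for bortezomib against vehicle became 2 at an unadjusted p and 0 with no filter on low values, with the median of ratios, with the length trend removed or scaled to the members' median. The 1 called for bortezomib plus FeAc against FeAc became 2 at an unadjusted p, 2 with the length trend removed, and 0 with no filter, a fit of the groups compared or scaling to the members' median. With the median of ratios 1 was called there too, but it was NDUFB4, higher at 0.67 (limma adjusted p = 0.0441), while NDUFV2 had -0.44 and did not pass (limma adjusted p = 0.128). For both bortezomib comparisons averaged, 6 members passed at any fold, against 1 called, and 0 were called with the median of ratios, the length trend removed or the members' median, while 10 passed in place of 6 after rescaling without mitochondrially encoded genes. The cause was not tested.

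Replicate numbers are shared by the groups, but replicate differences correlated at only -0.15 to 0.19 between groups, so the numbers were not taken to pair the samples. With the replicate block, 0 members were called in both single bortezomib comparisons. With the numbers crossed between groups in that block, 0 were called too.

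Scaled by the median of ratios, the members' median for bortezomib plus FeAc against FeAc was 0.16 in place of -0.04, and the log2 ratios of the summed levels were 0.25, 0.028, 0.18, 0.25 and 0.045 for complexes I to V. Under this scaling the FeAc difference was -0.078 for CYC1 and -0.044 for COX5A, that of bortezomib plus FeAc against bortezomib was 0.026 for SDHB, and that of bortezomib plus FeAc against FeAc was 0.14 for SDHC. With the length trend removed these were -0.031 for CYC1, 0.017 for SDHB and 0.059 for SDHC, and without mitochondrially encoded genes ATP5MG had -0.048 for bortezomib against vehicle. None of these members had passed.

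Leaving out each replicate gave the following ranges. For FeAc against vehicle the members' median ran from -0.29 to 0.049, SDHD from -0.54 to 0.047, UQCRB from -0.71 to 0.044, CYC1 from -0.17 to 0.20 and COX7C from -0.61 to 0.15. For bortezomib plus FeAc against bortezomib NDUFB9 ran from -0.022 to 0.33, SDHB from -0.098 to 0.070, COX7A2 from -0.20 to 0.016 and ATP5F1D from -0.60 to 0.034. For bortezomib against vehicle the members' median ran from -0.34 to 0.032, members called from 0 to 1, UQCRQ from -0.21 to 0.41 and ATP5MG from -0.19 to 0.22. For bortezomib plus FeAc against FeAc members called ran from 0 to 6, SDHC from -0.27 to 0.13 and UQCRQ from -0.0086 to 0.59. The interaction's median ran from -0.084 to 0.31. For both bortezomib comparisons averaged, members called ran from 0 to 2 and members past the adjusted p from 1 to 12. The summed levels for FeAc against vehicle ran from -0.27 to 0.067 in complex I, -0.18 to 0.061 in II, -0.40 to 0.071 in III, -0.32 to 0.092 in IV and -0.23 to 0.059 in V. For bortezomib against vehicle they ran from -0.23 to 0.11 in complex I, -0.42 to 0.056 in III, -0.26 to 0.14 in IV and -0.36 to -0.087 in V, and for bortezomib plus FeAc against FeAc from -0.29 to -0.054 in II and -0.30 to -0.016 in V.

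Counts over all genes moved more. Called for bortezomib against vehicle were 1800 genes, against 74 to 2255 with a replicate left out and 709 to 2383 otherwise, and for bortezomib plus FeAc against FeAc 2044, against 55 to 3275 and 107 to 2379. For FeAc against vehicle 1 gene was called, against 1 to 27 and 0 to 10, for bortezomib plus FeAc against bortezomib 0, against 0 to 29 and 0 to 17, and for the interaction 1, against 5 to 18 and 0 to 1. For both bortezomib comparisons averaged 3330 were called, against 2109 to 4010 and 2379 to 3612, and for both FeAc comparisons averaged 4, against 0 to 28 and 0 to 10. With a replicate left out, the lone sample of a group is assumed to vary like the others. Depth is unknown, so the precision of low values cannot be given.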
